A study of Mus musculus with 4 samples.

Results

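CpGs far from annotated genes are described here: cytosine-guanine pairs on chromosomes 1 to 19 that lay more than 50 kb from the body of any protein-coding or lncRNA gene in RefSeq, with both strands summed and at least 10 reads in every library. The rule used position and depth, and no methylation value. It held for 66099 of the 1600691 nuclear CpGs with that depth, and the other autosomal CpGs with that depth numbered 1499909. The far CpGs were 4.22% of the autosomal ones. Their median distance from a gene was 107981 bp and the greatest was 1737749 bp.

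DNA methylation was measured in liver by reduced representation bisulfite sequencing, in which enzyme-cut DNA is treated so that unmethylated cytosines read as thymine. The 4 libraries came from C57BL6/N mice aged 6 weeks, 2 from Pnpla7+/+ mice (WT) and 2 from Pnpla7-/- mice (KO). Pnpla7 encodes a lysophospholipase of the liver that frees glycerophosphocholine, and the question is what its loss does to methylation in liver. Whether each library is a different animal is not in the labels, and p-values therefore cover only how these libraries vary, which may be technical. Whole liver holds several cell types, whose shares were not measured.

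In mammalian DNA most CpGs outside CpG islands are methylated by DNMT1 and the DNMT3 enzymes, while islands, which are dense in CpG, stay unmethylated. DNA far from genes is largely repeat-rich and compact, and it can lose methylation over long stretches in dividing or ageing cells. It also holds distal enhancers, often near developmental regulator genes, where methylation is reduced, and small RNA genes with starts of their own.

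Sequence from RefSeq (GRCm38.p6, the assembly called mm10) could be shown for 2 small RNA genes, the far miRNA hairpins that held a far CpG themselves. They are printed because they show 2 kinds of far CpG described below. That of Mir137 lies in a CpG-dense unmethylated stretch, and that of Mir7j has few neighbours and an intermediate level. Both lie on the plus strand and are written 5′ to 3′ as RNA, with the CpG that reached 10 reads in every library in capitals. All 7 CpGs of Mir137 were listed in the tracks, and 1 had that depth.
Mir137, chr3:118433857-118433929: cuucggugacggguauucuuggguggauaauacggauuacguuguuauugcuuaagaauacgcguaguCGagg
Mir7j, chr3:140028249-140028370: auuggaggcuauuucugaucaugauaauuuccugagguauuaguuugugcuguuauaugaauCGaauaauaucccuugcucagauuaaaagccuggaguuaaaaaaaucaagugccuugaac

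Mir137 encodes a microRNA best known from neurons. Its CpG at 118433925, base 69 of the hairpin, had 20 other listed CpGs within 250 bp and read 0% in all 4 libraries, from 20 and 28 reads in WT and 22 and 20 in KO, which allow up to 15% and 10.7% in WT and 13.6% and 15% in KO (3 reads of the total). The 12 far CpGs within 1 kb of the hairpin averaged 1.46% and 0% in the WT libraries and 2.00% and 0.379% in the KO libraries, so the genotypes overlapped. In Mir7j, the CpG at 140028311, base 63, had 1 listed neighbour. It read 71.4% and 68.4% in WT against 68.8% and 72.7% in KO, on 11 to 19 reads. Of 919 autosomal hairpins in the table, 28 were far from a gene and 6 of them had a far CpG within 1 kb. Mir5099, with 4 such CpGs, was methylated at 90.5% and 95.2% in WT and 88.6% and 94.0% in KO.

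The DNA was cut with TaqaI and MspI, and fewer far CpGs reached the depth than elsewhere. Of 263138 far CpGs listed in any library 25.1% reached the depth, against 48.1% of the other autosomal CpGs. Median depths at far CpGs were 18 and 19 reads in WT and 18 and 19 in KO, against 21 and 25 in WT and 25 and 25 in KO elsewhere. A CpG with 5 of 10 reads methylated has a 95% Clopper-Pearson interval from 18.7% to 81.3%. Such intervals cover only the counting error of independent reads. The reads were amplified, so copies of a molecule may be counted repeatedly and the intervals may be too narrow. Methylation of mitochondrial cytosines, a measure of incomplete bisulfite conversion, was 0.395% and 0.442% in WT and 0.432% and 0.407% in KO, with overlap between genotypes.

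Most far CpGs were highly methylated. Taking each CpG's mean over the 4 libraries, the median was 85.5%, with quartiles of 72.6% and 92.1%. The mean level was over 80% at 41960 far CpGs (63.5%), between 20% and 80% at 21177 (32.0%) and under 20% at 2962 (4.48%). Among the other autosomal CpGs 47.3% were under 20%, a class that the plot of levels shows as a tall first bar.

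**Figure D1:**
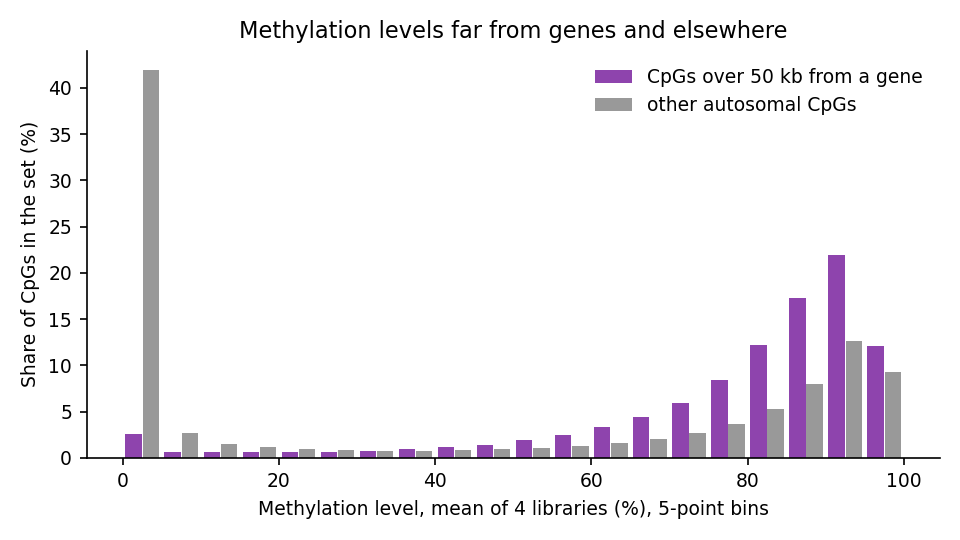
Share of CpGs (y axis, % of the set) in 5-point bins of methylation level (x axis, %, mean of the 4 libraries), for the 66099 far CpGs and the 1499909 other autosomal CpGs. The far CpGs lie mostly over 80%, and 4.48% of them are under 20% against 47.3% elsewhere.

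Levels went with CpG density. Far CpGs with 20 or more listed CpGs within 250 bp, 1365 in all, averaged 14.8% and 15.1% in WT and 14.9% and 14.8% in KO. Those with 5 to 19 neighbours averaged 79.7% and 79.4% in WT and 80.1% and 80.7% in KO, and the 1737 with no neighbour 82.1%, 81.5%, 82.7% and 84.2% in the same order. Nearby far CpGs had like levels. Adjacent far CpGs under 50 bp apart differed by 8.40 points on average over libraries (24805 pairs, Pearson r = 0.876), and those 1 to 10 kb apart by 18.2 points (10209 pairs, r = 0.0784). These correlations are across CpGs, which share fragments, reads and CpG density.

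The mean level over far CpGs was higher in both KO libraries than in both WT libraries. WT replicate 1 read 77.4%, WT replicate 2 77.0%, KO replicate 1 78.1% and KO replicate 2 79.2%. WT averaged 77.2% ± 0.291 and KO 78.6% ± 0.779 (SD, n = 2 each), a difference of 1.37 points. The exact two-sided permutation test gave p = 0.333, the smallest that 2 against 2 libraries allow, so the design cannot pass 0.05. The KO libraries were apart from each other too: KO replicate 1 lay 0.824 points above the WT mean and KO replicate 2 1.93 points. Without KO replicate 2 the difference was therefore 0.824. With CpGs weighted by their reads it was 0.747 and the genotypes overlapped, at 75.6% and 75.1% in WT and 75.5% and 76.7% in KO.

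The other autosomal CpGs averaged 43.2% and 43.0% in WT and 43.4% and 43.4% in KO, a difference of 0.301 points. The KO minus WT difference was thus 1.07 points larger at far CpGs (exact two-sided permutation test on far minus other levels within libraries, p = 0.333, the smallest possible). It was 0.517 without KO replicate 2 and 1.63 without KO replicate 1. The 2 sets differ in CpG density and level, so the other CpGs were also averaged with the far CpGs' shares of neighbour and level classes, a choice made after seeing the data. Their difference then was 0.702 points, and the excess at far CpGs was 0.673. In that comparison KO replicate 1 lay 0.216 and KO replicate 2 1.13 points above the WT mean.

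Among classes of level the difference was largest at intermediate ones. Far CpGs of 20% to 80% averaged 62.7% and 62.0% in WT and 64.4% and 66.2% in KO, 2.95 points higher, against 1.23 points at other CpGs of that level. Far CpGs over 80% read 89.97% and 89.6% in WT and 90.02% and 90.9% in KO, a difference of 0.646 points, with KO replicate 1 0.205 and KO replicate 2 1.09 above the WT mean. Those under 20% read 5.55% and 5.75% in WT and 6.39% and 5.79% in KO, a difference of 0.438, with KO replicate 1 0.734 and KO replicate 2 0.142 above it. By density, far CpGs with 1 to 4 neighbours read 78.1% and 77.6% in WT and 78.9% and 80.2% in KO, 1.71 points higher, against 0.839 at other CpGs of that density. Without KO replicate 2 these were 1.03 and 0.715. At 20 or more neighbours the KO mean was 0.110 points lower (-0.110) and the libraries overlapped.

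With CpGs weighted equally, differences were larger far from genes than in or near them, and the KO libraries were not alike in this. KO minus WT was 0.216 points for CpGs in genes, 0.417 under 10 kb from one, 0.895 at 10 to 50 kb, 1.29 at 50 to 100 kb, 1.42 at 100 to 250 kb, 1.52 at 250 to 500 kb and 1.47 beyond 500 kb. CpGs with 1 to 4 neighbours alone gave 0.735 in genes and 1.95 beyond 500 kb. Those with 5 to 19 neighbours gave 0.260 in genes, 0.646 at 10 to 50 kb, 0.971 at 250 to 500 kb and 0.472 beyond 500 kb, where the libraries overlapped. Those with 20 or more gave -0.126 in genes and values below 0 up to 250 kb, and 3.07 at 250 to 500 kb from 55 CpGs. The excess of KO replicate 2 over the WT mean was 0.199 points in genes, 1.63 at 50 to 100 kb and 2.43 beyond 500 kb. That of KO replicate 1 was 0.233 in genes, 0.747 at 10 to 50 kb, 0.947 at 50 to 100 kb and 0.520 beyond 500 kb. Past 50 kb the excess was thus larger with distance in KO replicate 2 and smaller in KO replicate 1. Over all far CpGs beyond 250 kb the difference was 1.51 points, 0.629 without KO replicate 2, 2.38 without KO replicate 1, and 0.579 with overlap when CpGs were weighted by reads. At the threshold itself, the 5750 CpGs at 45 to 50 kb differed by 1.06 points and the 5127 far CpGs at 50 to 55 kb by 1.23.

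**Figure D2:**
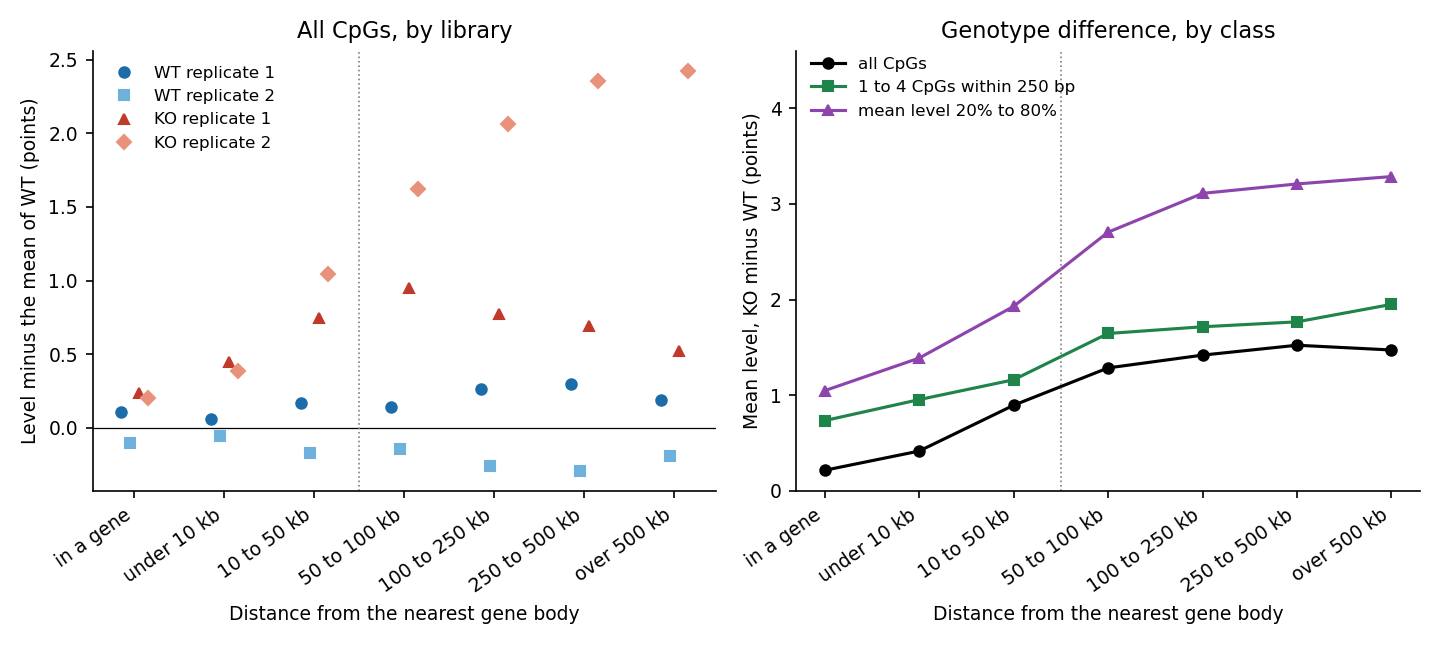
Left, mean level of each library minus the mean of the WT libraries (points) by distance from the nearest gene body; right, KO minus WT (points) for all CpGs, for CpGs with 1 to 4 neighbours and for CpGs of 20% to 80%. The dotted line marks 50 kb; KO replicate 2 reaches 2.43 points beyond 500 kb while KO replicate 1 reaches 0.520.

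All 19 autosomes had higher far CpG means in both KO libraries than in both WT libraries. The difference ran from 1.12 points on chromosome 4 to 1.63 on chromosome 1, and it exceeded that of the other CpGs, 0.117 to 0.391, on 19 of 19 chromosomes. Chromosomes of the same 4 libraries are not replicates of a genotype. KO replicate 2 lay above KO replicate 1 on 19 of 19, by offsets from the WT mean of 1.60 to 2.35 against 0.502 to 1.24. In WT the level was lowest on chromosome 8 (73.9%) and highest on chromosome 14 (79.7%).

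**Figure D3:**
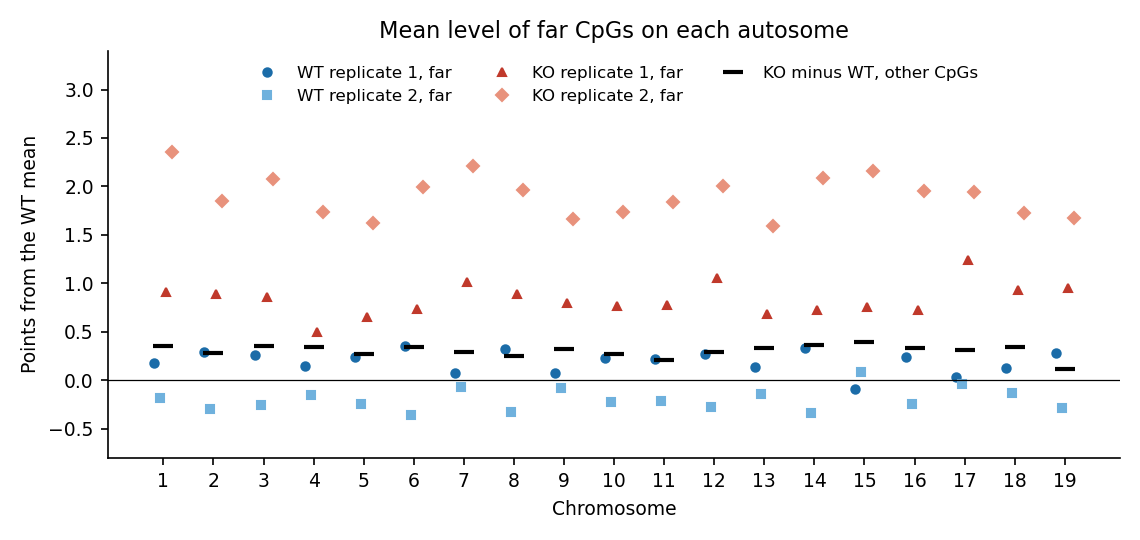
Mean level of far CpGs in each library minus the mean of the WT libraries (y axis, points) on chromosomes 1 to 19, with the KO minus WT difference of the other CpGs as black bars. Both KO libraries lie above both WT libraries on every autosome shown, with KO replicate 2 the highest.

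At single far CpGs the libraries differed as much within a genotype as between genotypes. The mean absolute difference was 9.30 points within WT, 9.07 within KO and 9.24 to 9.39 between genotypes. Of the far CpGs 54.3% had a higher KO mean and 43.6% a lower one, with a median difference of 0.877 points, against 40% and 37.4% and a median of 0 elsewhere. The 2 means were equal at 1449 of 66099 far CpGs and at 339272 of 1499909 others, which lowers both shares elsewhere.

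Each gene-free stretch between neighbouring genes, less 50 kb on each side, is called a gap here. The far CpGs lay in 2276 gaps, and 1533 gaps with at least 10 of them held 62620. Levels summed over reads had a median over gaps of 81%, with quartiles of 76.1% and 84.7%. The KO mean was higher in 1138 gaps and lower in 395, with a median difference of 1.26 points, against 8668 and 7332 of the 100-kb windows of other CpGs and a median of 0.162. Both KO libraries lay above both WT libraries in 548 gaps (35.7%), against 21.4% of all gaps and windows tested, and below them in 96 (6.26%), against 13.5%. No gap passed an adjusted p of 0.05 in the moderated quasi-binomial model, 0 of 1533, as in 0% of all gaps and windows. The lowest adjusted p was 0.945. At an unadjusted p under 0.05 there were 53 gaps, 46 higher and 7 lower in KO. That was 3.46% of gaps, below the 4.95% of windows, where 400 of 792 were lower. With limma 0 of 1533 gaps were called too, as in 0% of all gaps and windows, and 171 of the 1533 had that unadjusted p. Their direction and the share of windows under limma were not counted, so 171 has no background here.

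Levels were alike in short and long gaps. Gaps under 100 kb had a median level of 80.3% and those over 1 Mb 81%, and the median KO minus WT was 1.01 and 1.42 points. The longest tested gap, 3377131 bp on chromosome 3 between D3Ertd751e and 2610316D01Rik, held 271 far CpGs at 81.2% and 80% in WT and 81% and 81.8% in KO, with overlap. The gap between Gm34912 and Adgrl3, an adhesion receptor gene of neurons, was 2970061 bp long and read 80.8% and 80.7% in WT and 81.6% and 82.9% in KO.

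Gaps beside developmental regulators, genes for transcription factors and signals such as the Pax, Sox, Irx and Wnt families, had the lowest median of the gene groups. Genes were matched by symbol, so Lhx1os is among them. The 33 gaps beside these genes had a median level of 75.7%, against 81.2% for the 876 gaps beside no listed gene. In 11 of the 33 at least 10% of the far CpGs were under 20%, against 85 of the 876 and 153 of all 1533 gaps. The KO mean was higher in 23 of the 33 and lower in 10, with a median of 0.870 points. The 44 gaps beside neuronal adhesion genes, such as cadherins, contactins and neurexins, had a median level of 80.8% and a difference of 1.46 points, 39 higher and 5 lower. The 17 gaps beside chemosensory receptor genes, which work mainly in sensory epithelia, were at 84.4% with 0.824 points, 12 higher and 5 lower. The 563 gaps between predicted genes only were at 80.8% with 1.26 points, 415 higher and 148 lower. None of these gaps passed the adjusted test, and differences between the groups were not tested.

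Gaps with low levels over reads were of 2 kinds, those where many CpGs were unmethylated and those where a few very deep CpGs were, such as the gap between Gm9017 and Gm33797 described at the end. The gap between Cnksr3 and Ulbp1, which encodes a ligand for natural killer cells, had 155 far CpGs at 15.1% and 13.3% in WT and 14.0% and 13.5% in KO, with 80% of its CpGs under 20%. The gap between Zfat, a zinc finger regulator of lymphocyte genes, and Gm49415 had 150 at 15.7% and 15.9% in WT and 15.8% and 15.6% in KO. The gap with most far CpGs, 362 between Gm39198 and the homeobox gene Isx, was at 46.0% and 44.5% in WT and 41.4% and 46.2% in KO. Over reads, the genotypes overlapped in all 3. With CpGs weighted equally they overlapped in the Cnksr3 and Zfat gaps only. The Isx gap then averaged 55.0% and 54.7% in WT and 55.5% and 56.9% in KO. The most methylated gap of at least 50 far CpGs, between Gm31552 and Gm31610, read 90.3% and 90.9% in WT and 90% and 91.0% in KO.

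Far CpGs were also summed in 1-kb tiles of at least 3 analysed CpGs, all of them far, which gave 8785 tiles. Of these 4404 (50.1%) were over 80% in every library, 1627 (18.5%) between 20% and 80% in every library and 183 (2.08%) below 20% in every library, against 19.1% below 20% elsewhere. The 183 unmethylated tiles held 2032 CpGs and formed 153 runs in 129 gaps. Their mean level was 5.87% and 6.23% in WT and 6.25% and 5.87% in KO, with overlap.

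The unmethylated tile with most CpGs lay in the Zfat gap, at 68362001 to 68363000 on chromosome 15, and was 103079 bp from Zfat. Its 94 CpGs read 0.71% and 0.42% in WT and 0.39% and 0.40% in KO, on 2831 to 3612 reads. The tile at 73353001 to 73354000 on chromosome 8, in the Isx gap and 566392 bp from the nearest gene, had 67 CpGs at 0.26% and 0.46% in WT and 0.53% and 0.27% in KO. The tile at 92460001 to 92461000 on chromosome 8 lay between Irx5 and Irx6, homeobox genes of one cluster, and its 59 CpGs read 0.53% and 0.83% in WT and 0.51% and 1.35% in KO. The genotypes overlapped in the Isx and Irx tiles, and the Zfat tile, higher in both WT libraries by a fraction of a point, had an adjusted p of 0.95 (moderated quasi-binomial model).

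Methylation increased within 2 kb of the centre of these runs. Averaged over 148 runs, far CpGs within 250 bp of the centre were at 6.73% and 7.01% in WT and 7.12% and 6.92% in KO. At 500 bp to 1 kb the values were 41.2% and 42.7% in WT and 45% and 44.4% in KO, from 290 CpGs in 48 runs. At 10 to 20 kb they were 73.9% and 74.2% in WT and 75.2% and 76.2% in KO, from 114 runs. The bins thus average different runs, and part of the change along the profile may come from that. The runs were chosen for low levels in these libraries, so the low centre is given as a description.

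**Figure D4:**
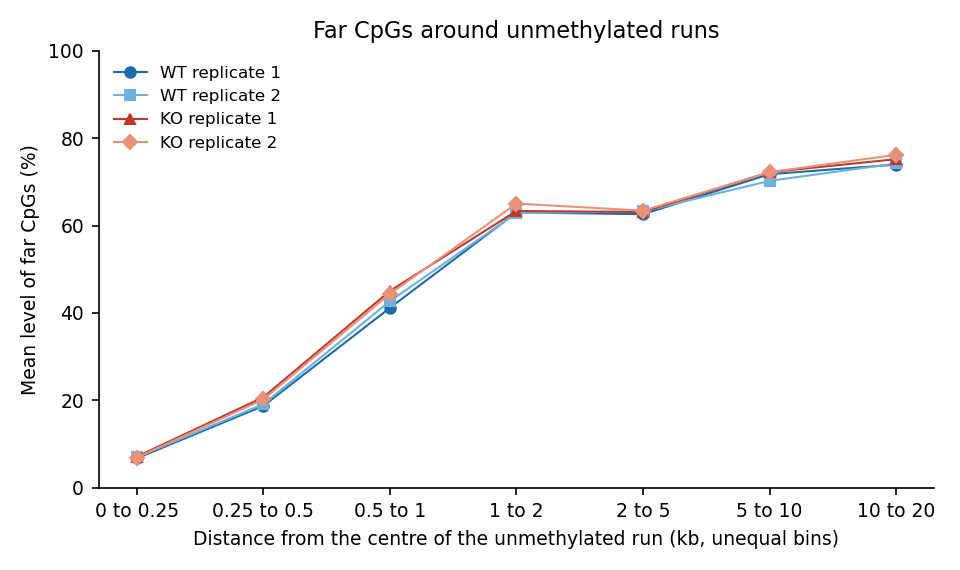
Mean level of far CpGs (y axis, %) in each library by distance from the centre of the 153 unmethylated runs (x axis, kb, bins of unequal width), averaged over the runs with a CpG in the bin. All 4 libraries go from about 7% at the centre, 6.73% to 7.12%, to between 73.9% and 76.2% at 10 to 20 kb. The bins hold different runs: 148 in the first, 43 at 250 to 500 bp and 114 at 10 to 20 kb.

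Of the 5 tiles of 20% to 80% with most CpGs, 3 are given here. The tile at 33540001 to 33541000 on chromosome 5, between the homeobox gene Nkx1-1 and Fam53a, had 22 CpGs at 20.1% and 27.0% in WT and 30.9% and 26.7% in KO, where the genotypes overlapped. The tile at 59194001 to 59195000 on chromosome 15, between Mtss1, a cytoskeletal regulator, and Gm36617, had 14 CpGs at 54.1% and 55.9% in WT and 63.7% and 66.7% in KO. That difference of 10.2 points did not pass (adjusted p = 0.300, moderated quasi-binomial model). On chromosome 17 between Pkdcc and Eml4, an unmethylated tile of 55 CpGs, at 1.84% and 1.46% in WT and 1.75% and 1.80% in KO, stood next to one of 20 CpGs at 55.2% and 43.2% in WT and 45.1% and 42.1% in KO.

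Of 8784 far tiles tested, 2 were called, both higher in KO; a tile or CpG is called here when its adjusted p is below 0.05 and its genotypes are 10 or more points apart. Across the nuclear genome 0.0788% of tiles were called, 0.0611% higher and 0.0177% lower, and the far share was 0.0228%, from 2 calls. Both KO libraries lay above both WT libraries in 2016 far tiles (23.0%), against 19.5% of all tiles, and below them in 1063 (12.1%), against 14.9%. An unadjusted p under 0.05 was reached by 398 far tiles (4.53%), 302 higher and 96 lower, against 5.81% of other autosomal tiles.

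The first called tile lay on chromosome 8 at 126651001 to 126652000, 54833 bp from Gm31546 and 76291 bp from Gm31603, both predicted genes. It read 35.7% and 39.2% in WT and 72.4% and 72.9% in KO, on 56 to 116 reads (difference 35.2 points, adjusted p = 0.0103, moderated quasi-binomial model). Each of its 3 CpGs was higher in both KO libraries: 126651233 read 21.4% and 14.8% in WT against 70.6% and 52.4% in KO, 126651281 read 35.7% and 43.1% against 72.4% and 75%, and 126651331 read 50% and 58.3% against 75% and 85.2%. Without WT replicate 2 the adjusted p was 0.109.

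The second called tile lay on chromosome 15 at 74128001 to 74129000 between Gm32405 and Gm32918, and rested on 1 of its 3 CpGs. The tile read 50.6% and 47.8% in WT and 88.0% and 83.2% in KO (difference 36.3 points, adjusted p = 0.00453, moderated quasi-binomial model). The CpG at 74128295 read 0% and 0% in WT, on 38 and 44 reads that allow up to 7.89% and 6.82%, and 84.2% and 87.0% in KO, on 38 and 46. Its neighbours in the tile were near full methylation in both genotypes: 74128263 read 88.2% and 90.5% in WT against 94.1% and 83.3% in KO, and 74128335 read 100% and 92.6% against 89.3% and 78.4%. With limma neither tile passed (adjusted p = 0.894 for both), and 0 of 163610 tiles of the nuclear genome were called.

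Of 64855 far CpGs tested, 3 were called, all higher in KO, against 0.00807% of CpGs in the nuclear genome, 0.00767% higher and 0.000396% lower. The far share was 0.00463%, from too few calls to set it apart from the background, and the difference was not tested. Besides 74128295 (adjusted p = 4.83e-08, moderated quasi-binomial model) these were 74112704 in the same gap and 103423883 on chromosome 8. The CpG at 74112704 read 0% and 5.26% in WT and 80% and 70.6% in KO, on 10 to 19 reads (adjusted p = 0.0230). The CpG at 103423883, between 1600027J07Rik and LOC115486959, read 45% and 48.4% in WT and 100% and 92.3% in KO, on 26 to 40 reads (adjusted p = 0.0118). At an unadjusted p under 0.05 there were 2946 far CpGs (4.54%), 1918 higher and 1028 lower, against 3.96% of other autosomal CpGs. With any 1 library left out none of the 3 stayed called, and neither did any CpG of the nuclear genome. Their differences were then 84.2 to 87.0 points for 74128295, 68.0 to 77.4 for 74112704 and 45.6 to 53.3 for 103423883. With the spread estimated from all CpGs only 74128295 stayed called (adjusted p = 0.701 for 103423883 and 0.743 for 74112704, moderated quasi-binomial model). With limma 12 far CpGs were called, 8 higher and 4 lower in KO, which was 0.0185% against 0.0152% of all CpGs tested.

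The 2 chromosome 15 CpGs were the only far CpGs at or below 10% in both WT libraries and at or above 70% in both KO libraries, 2 of 66099, and no far CpG showed the opposite. Among the other autosomal CpGs 13 of 1499909 were likewise low in WT and high in KO, all on chromosome 15, and none the opposite. Their gap had the smallest p of all gaps: its 32 far CpGs read 65.6% and 68.8% in WT and 78.4% and 81.7% in KO, 12.9 points higher (unadjusted p = 0.000886, adjusted p = 0.945, moderated quasi-binomial model). Without these 2 CpGs, a choice made after seeing the data, the gap read 71.1% and 75.2% in WT and 78.0% and 81.6% in KO, 6.64 points higher. Of the 32 CpGs 21 were higher and 11 lower in KO. Bisulfite reads do not tell an unmethylated cytosine from a thymine in the genome, and no genome sequence of these mice was used here.

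**Figure D5:**
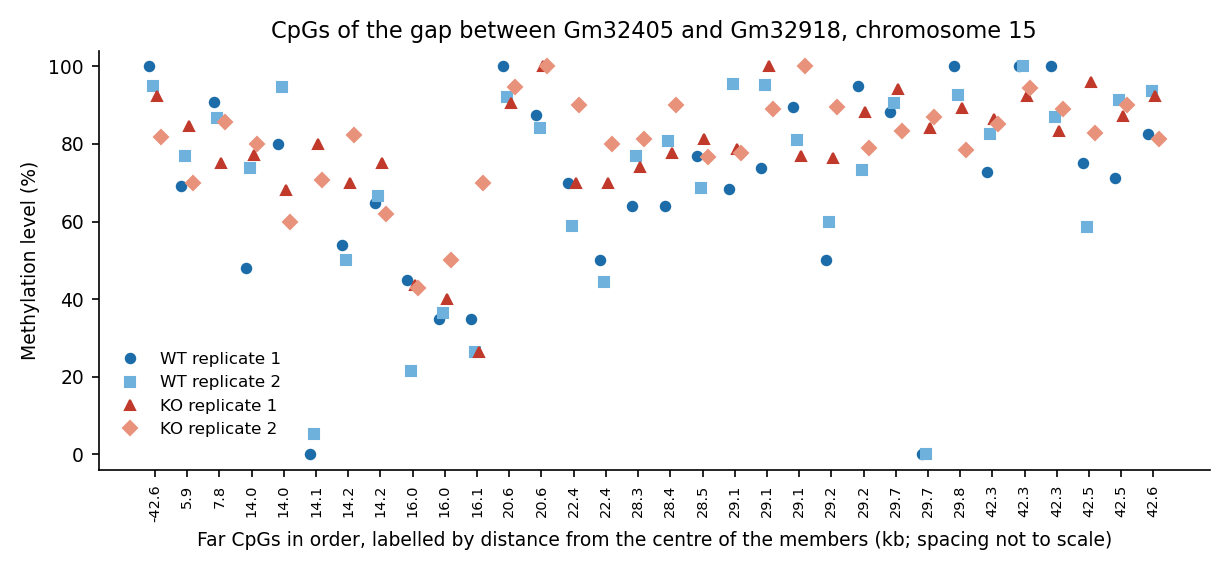
Methylation level (y axis, %) in each library of the 32 far CpGs between Gm32405 and Gm32918 on chromosome 15, in order and labelled by distance from the centre of the members (x axis, kb, not to scale). The WT points of 2 CpGs lie at 0% to 5.26% with KO points at 70.6% to 87.0%, while the other CpGs show smaller differences in both directions.

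Other far positions with small p-values did not pass. The tile at 5860001 to 5861000 on chromosome 3, between the peroxisome biogenesis gene Pex2 and Gm46796, had 13 CpGs and 10498 to 13065 reads, and read 3.08% and 2.19% in WT and 4.55% and 3.92% in KO. Its adjusted p was 0.00606 (moderated quasi-binomial model), but the difference of 1.60 points is under the minimum. Lower in KO with the smallest p was the tile at 145156001 to 145157000 on chromosome 1, between Rgs18, a regulator of G protein signalling, and Gm41965, at 94.2% and 90% in WT and 72.8% and 59.7% in KO (adjusted p = 0.0545, moderated quasi-binomial model). In that tile 2 of the 4 CpGs carried the difference: 145156652 read 100% and 95% in WT against 56.5% and 40% in KO, and 145156686 read 100% and 95% against 65.2% and 38.2%. The CpG at 48647716 on chromosome 10, between Gm35552 and the glutamate receptor gene Grik2, read 35.1% and 40.6% in WT and 85.2% and 84.6% in KO (adjusted p = 0.0760, moderated quasi-binomial model). The gap between Ofcc1 and Tfap2a, which encodes a transcription factor of the neural crest, had 125 far CpGs at 74.2% and 73.0% in WT and 78.5% and 77.2% in KO, 4.24 points higher (unadjusted p = 0.00754, adjusted p = 0.945, moderated quasi-binomial model).

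The rule left antigen receptor loci among the far positions, since their gene segments are annotated apart from protein-coding genes. These loci are rearranged only in lymphocytes. The 317 far CpGs of the Igk locus averaged 84.4% and 83.2% in WT and 83.4% and 86.0% in KO, with overlap. The 256 of Igh averaged 70.3% and 70.3% in WT and 72.8% and 73.2% in KO, 2.74 points higher, and the 103 of Tcra 76.2% and 75.7% against 78.1% and 79.2%, 2.68 points higher. Loci with few far CpGs lay the other way: the 6 of Igl averaged 75.9% and 76.3% in WT and 73.7% and 72.1% in KO (difference -3.16), the 14 of Tcrb differed by -0.804 and the 5 of Tcrg by -0.0697, the last 2 with overlap. None of these differences was tested. The 2017 far CpGs in annotated pseudogenes averaged 75.8% and 75.4% in WT and 76.3% and 77.1% in KO.

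A few far CpGs drew very many reads. The 171 far CpGs with over 298 reads summed over libraries (0.259%) held 4.95% to 6.71% of the far reads, and averaged 57.4% and 57.4% in WT and 57.2% and 58.0% in KO. They set the level of single gaps. Between Gm9017 and Gm33797 the reads gave 21.7% and 20.4% in WT and 17.6% and 19.4% in KO, but 6 deep CpGs at 2.88% to 3.91% held most of them, and with equal weights its 147 far CpGs averaged 75.5% and 75.8% in WT and 76.4% and 77.8% in KO.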

How the data were processed

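Liver DNA of 2 WT and 2 KO libraries was bisulfite sequenced after enzyme cutting. The authors deposited, for each library, a track of methylation level and a track of depth on mm10, made with GBSA per the file headers. The deposited values are scores: the level from 0 to 1 and the depth in reads, each with a minus sign on the reverse strand. The submitters' processing notes name BWA 0.7.12 and MACS without their role, and the filters applied are not stated in them.

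Level times depth gave methylated reads, whole within 1e-06 for every cytosine. Strands were summed, and a CpG was kept where each library had 10 reads or more. Distances came from RefSeq gene bodies (GRCm38.p6). The gene lists, tests and members were chosen with earlier results of these data known. A mean level weights CpGs equally, while tiles and gaps sum reads.

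A quasi-binomial model of methylated reads by genotype was fitted to all nuclear CpGs, to all 1-kb tiles with at least 3 CpGs, and to gaps with at least 10 far CpGs together with 100-kb windows of other autosomal CpGs. Its dispersion was moderated across features as limma 3.58.1 does, from features whose binomial variance reached 5 reads per library, and held at 1 or above. Two-sided tests were adjusted by the Benjamini-Hochberg method over each whole table. Calls needed an adjusted p under 0.05 and, for CpGs and tiles, 10 points. The 1244 far CpGs at 0% or 100% in every library could not be tested. The model was tested on simulated reads.

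Means were compared by the exact permutation test over libraries. Named were called CpGs and tiles, the 5 smallest p each way where fewer than 5 were called, the 5 gaps with most members, the 5 longest, the 5 lowest and 5 highest of at least 50 members, and the 5 tiles with most CpGs below 20% and at 20% to 80%. Some of each are printed. Gaps with the smallest p, chosen after their values were seen, are also named. Alternatives changed the depth, distance, gene biotypes, weights, prior, test, tile size, replicate block and libraries. R 4.3.3, pandas 2.3.3 and numpy 2.4.6 were used.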

Additional observations from a re-analysis of the deposited data

How the results depend on the processing

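The mean difference at far CpGs kept its direction under 15 of 15 alternatives, from 0.747 to 1.93 points, and the excess over other CpGs under 16 of 16, from 0.517 to 1.63. The replicate block is counted in both, though it cannot change a mean here. With 1 library left out the mean difference ranged from 0.824 to 1.93 and the excess from 0.517 to 1.63. CpGs with 5 to 9 reads in the shallowest library, an alternative chosen after seeing the data, gave 1.77 and 1.12. Calls were less stable. With 1 library left out, which leaves 1 genotype with 1 library, no CpG was called, far or elsewhere. The prior degrees of freedom for CpGs were then 6.11 to 7.84 in place of 32.8. Which far tiles were called varied with the library left out. The differences of the 2 main tiles then stayed at 33.4 to 37.0 points on chromosome 8 and 33.9 to 38.7 on chromosome 15. The replicate block gave 8 CpGs, 5 higher and 3 lower in KO, and 5 tiles, 4 higher and 1 lower. In those 2 fits the prior degrees of freedom were infinite. Every feature then took the shared dispersion and none of its own spread, so these counts are not comparable with the main ones. All CpGs and tiles tested then had 335 and 341 calls, and the far shares were 0.0123% against 0.0265% for CpGs and 0.0569% against 0.208% for tiles. The deviations of same-numbered libraries had a correlation of 0.00634 across far CpGs, -0.00166 across far tiles and -0.0519 across gaps. Counting error at this depth can hide a shared deviation, so these values do not decide whether same-numbered libraries share a batch. The block cannot change a mean difference in this balanced design, and both stayed at 1.37 and 1.07. A prior from all features gave 1 CpG, 0.00154% against 0.000712% of all, and limma on log2 ratios 12 CpGs and 0 tiles. With limma 0 of all 163610 tiles tested were called. Tiles of at least 5 CpGs gave 0 calls in 2687 far tiles, against 0.0895% of all tiles tested. Both tiles called in the main setting have 3 CpGs, so that setting left them out untested. With 20 reads in every library 0 of 1488 far tiles were called, against 0.117%, and 3 far CpGs (0.0213% against 0.0153%). The same 2 tiles kept fewer than 3 CpGs of that depth, so they were not tested there either. More than 25 kb from a gene there were 8 CpGs (0.00736%, against 0.00807% of all CpGs tested) and 6 tiles (0.0393% against 0.0788%). More than 100 kb away there were 0 of 34816 CpGs and 0 of 4511 tiles, against the same shares of all. With genes of every biotype there were 1 CpG (0.00241% against 0.00807%) and 1 tile (0.0179% against 0.0788%). Without chromosome 15 there were 1 CpG (0.00161% against 0.00223%) and 1 tile (0.0119% against 0.0716%). Leaving out the deepest 1% of CpGs gave 5 CpGs (0.00773% against 0.0114%). Depth, distance, biotype and chromosome settings change which CpGs are members. Where not stated here, the cause was not tested. Gaps stayed at 0 calls under 17 of 17 alternatives. At 10 reads the precision of a single CpG is low, and 2 libraries per genotype set the smallest permutation p at 0.333.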
